A study of Mus musculus with 18 samples.

Results

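The meiotic chromosome and recombination genes are 33 named genes whose products build and tether meiotic chromosomes, break and repair their DNA, or switch cells into meiosis. They were chosen by name, and all 33 were found, by symbol and gene identifier, among the 56551 genes of the deposited table. RNA was measured in mouse embryonic stem cells of 6 genotypes, with 3 libraries each. Pcgf-6KO cells are labelled as lacking Pcgf1, Pcgf2, Pcgf3, Pcgf4 (the product of Bmi1), Pcgf5 and Pcgf6, and Pcgf-4KO cells as lacking Pcgf1, Pcgf3, Pcgf5 and Pcgf6. Ring1a/b-dKO cells are labelled as lacking both Ring1a (gene Ring1) and Ring1b (gene Rnf2), Ring1b-KO cells as lacking Ring1b, Ring1a-KO cells as lacking Ring1a, and WT cells as wild type. No strain, clone, passage, medium or treatment is given in the labels, and nothing in them ties the 3 libraries of a genotype to separate cultures. The p-values therefore measure the spread between these libraries, which may be technical.

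Ring1a and Ring1b are the alternative catalytic subunits of Polycomb repressive complex 1 (PRC1), a chromatin complex that mono-ubiquitylates histone H2A, and the Pcgf proteins define its variants. The variant with Pcgf6, called PRC1.6, also holds the DNA-binding proteins Mga, Max and E2f6, and is known for keeping germline genes silent in embryonic stem cells. Mga and Max bind E-boxes, and E2f6 binds E2F-type sequences. In meiosis, sister chromatids are held along a protein axis by meiosis-specific cohesins, homologous chromosomes are zipped together by the synaptonemal complex, and programmed DNA breaks are repaired from the homologue as crossovers. Most of these genes are normally active in germ cells of the testis and ovary.

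The deletions were visible in part at gene level. Over 14 combinations of a knockout with a gene it targets, 7 were called lower, 4 were not called and 3 were higher. Pcgf6 was at 10.6 ± 0.78 TPM in Pcgf-6KO and 0.06 ± 0.05 TPM in Pcgf-4KO, against 53.01 ± 0.26 TPM in WT. Rnf2 was at 22.8 ± 2.94 TPM in Ring1a/b-dKO and 49.4 ± 3.13 TPM in Ring1b-KO, against 71.3 ± 5.24 TPM in WT. Ring1 had 2.74, 6.12 and 9.40 TPM in Ring1a/b-dKO and 5.46, 3.83 and 2.86 TPM in Ring1a-KO, against 7.42, 7.10 and 7.11 TPM in WT, and neither difference was called (adjusted p = 0.311 in Ring1a/b-dKO and 0.0705 in Ring1a-KO). Bmi1 in Pcgf-6KO, Pcgf5 in Pcgf-6KO and Pcgf5 in Pcgf-4KO were the 3 called higher. Gene-level TPM does not show which exons were read, so the groups are given here as labelled, and every direction given is that of the libraries under those labels.

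In the 4 genotypes that lack Ring1b or at least 4 Pcgf proteins, most of the meiotic genes were higher than in WT. The summed level of the 33 genes was 480 ± 10.3 TPM in Pcgf-6KO, 567 ± 23.3 TPM in Pcgf-4KO, 659 ± 10.8 TPM in Ring1a/b-dKO and 589 ± 8.35 TPM in Ring1b-KO, against 234 ± 6.19 TPM in WT (mean ± SD, n = 3 here and throughout). TPM is the share of each gene among all transcripts of a library, corrected for gene length. In Ring1a-KO the sum was 189 ± 11.7 TPM. The highest Ring1a-KO library, at 201 TPM, lay below the lowest WT library, at 227 TPM, and the lowest library of the other 4 mutants had 469 TPM. The meiotic genes at 10 TPM or more numbered 16 in Pcgf-6KO, 18 in Pcgf-4KO, 16 in Ring1a/b-dKO, 16 in Ring1b-KO, 5 in Ring1a-KO and 5 in WT. The same count was not made over all genes. These are bulk libraries, so more cells with a transcript and more transcript per cell cannot be told apart. The files hold TPM without read counts, so depth is unknown. All genes at 1 TPM or more numbered 14207 to 14225 in the WT libraries, 14223 to 14421 in Ring1a-KO and 15289 to 16585 in the other 4 mutants.

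**Figure D1:**
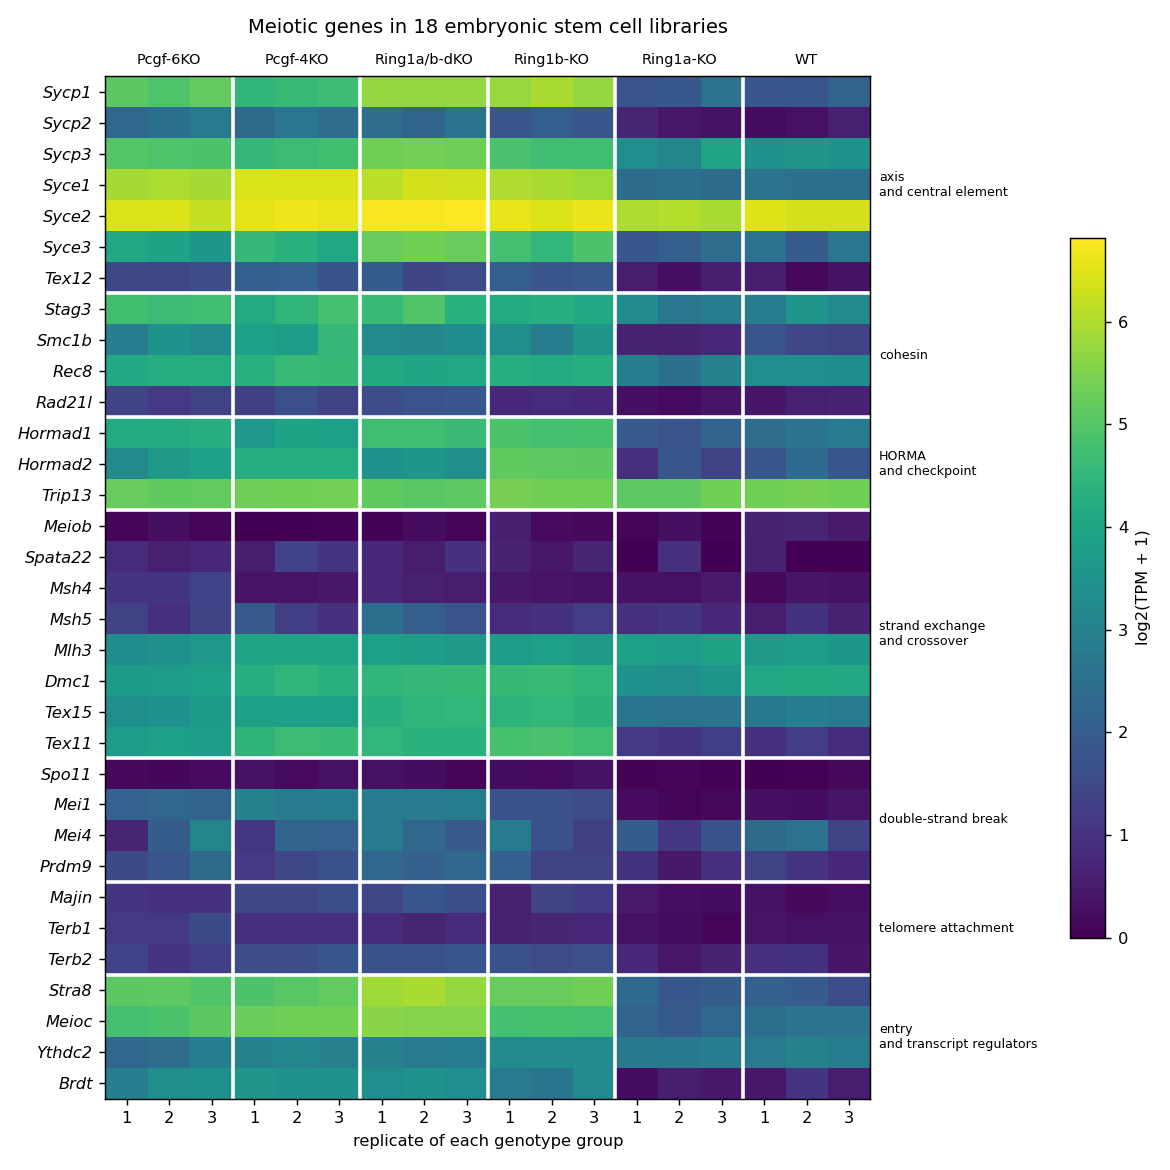
Level of the 33 genes in the 18 libraries, as log2(TPM + 1), with genes in rows by role and libraries in columns by genotype. Sycp1, Syce1, Stra8 and Meioc are bright in the 12 libraries of Pcgf-6KO, Pcgf-4KO, Ring1a/b-dKO and Ring1b-KO and dark in the 6 libraries of Ring1a-KO and WT, whereas Syce2 and Trip13 are bright in all 18.

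Each genotype was compared with WT by limma on log2(TPM + 1), which understates the change of low genes, and a gene was called at a Benjamini-Hochberg adjusted p under 0.05 over all genes tested. The test took the 17842 genes with at least 1 TPM in 3 or more libraries, and 30 of the 33 were among them. Meiob, Spata22 and Spo11 were not tested. Of the 30, the 20 with a WT mean of at least 1 TPM could have been called in either direction. The other 10 (Sycp2, Tex12, Rad21l, Msh4, Msh5, Mei1, Majin, Terb1, Terb2 and Brdt) passed the filter through mutant libraries, so each is described on its own, and the counts against WT leave them out. The background is the share of all 14220 genes at 1 TPM or more in WT. In Pcgf-6KO 14 of the 20 were higher (70%, beside 46.7% of the background), 11 of them at least 2-fold (beside 18.2%), with a median log2 change of 1.47, beside 0.19. In Pcgf-4KO 16 were higher (80%, beside 45.3%), 13 at least 2-fold (beside 12%), with a median of 1.19, beside 0.18. In Ring1a/b-dKO 16 were higher (80%, beside 46.9%), 13 at least 2-fold (beside 13.6%), with a median of 1.55, beside 0.22. In Ring1b-KO 15 were higher (75%, beside 31.1%), 11 at least 2-fold (beside 5.04%), with a median of 1.43, beside 0.07. Of the 20, 4 were lower in Pcgf-6KO (background 27.8%), 0 in Pcgf-4KO (22.1%), 1 in Ring1a/b-dKO (19.5%) and 0 in Ring1b-KO (21.1%), where both counts of 0 were also 0 at an unadjusted p under 0.05 in limma. The share of the 20 genes that rose was above the background in each of these mutants, most of all among rises of at least 2-fold.

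Calls were frequent among all 17842 tested genes. In Pcgf-6KO 51.7% were called higher and 22.5% lower, in Pcgf-4KO 47.1% and 17.9%, in Ring1a/b-dKO 48.6% and 15.8%, and in Ring1b-KO 34.7% and 17.1%. The median log2 change of all tested genes was itself above 0, at 0.33 in Pcgf-6KO, 0.25 in Pcgf-4KO, 0.28 in Ring1a/b-dKO and 0.13 in Ring1b-KO.

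Median ratio scaling, which takes the typical gene as unchanged, brought the median of all tested genes to between 0.00 and 0.04 in these comparisons. In Pcgf-6KO 52.1% of all calls were then higher, in place of 69.6%, and 14 of the 20 genes were called higher, beside a background of 31.6%. In Pcgf-4KO 50.4% of calls were higher, in place of 72.5%, and 13 of the 20 genes, beside 28.7%. In Ring1a/b-dKO 50.6% of calls were higher, in place of 75.5%, and 14 of the 20, beside 28.2%. In Ring1b-KO 48.8% of calls were higher, in place of 67%, and 14 of the 20, beside 21.3%. Quantile normalization gave 13 of the 20 in Pcgf-6KO (background 30.4%), 13 in Pcgf-4KO (29.6%), 14 in Ring1a/b-dKO (28.4%) and 14 in Ring1b-KO (22.8%). Rises of at least 2-fold numbered 11 in Pcgf-6KO (background 11.8%), 8 in Pcgf-4KO (7.12%), 12 in Ring1a/b-dKO (7.62%) and 11 in Ring1b-KO (3.74%) under median ratio scaling. Under quantile normalization they numbered 10 in Pcgf-6KO (10.7%), 8 in Pcgf-4KO (6.13%), 11 in Ring1a/b-dKO (6.29%) and 11 in Ring1b-KO (3.21%). The 13 rises of at least 2-fold in Pcgf-4KO thus became 8 under either scaling.

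Across the same 4 comparisons, which share the WT libraries, 13 of the 20 genes (65%) were called higher in every one, as were 18.8% of the 14220 genes at 1 TPM or more in WT. The 13 are Sycp1, Sycp3, Syce1, Syce3, Stag3, Smc1b, Rec8, Hormad1, Hormad2, Tex11, Tex15, Stra8 and Meioc. The same 13 were called in all 4 under median ratio scaling, beside 10.3% of the genes, and under quantile normalization, beside 10.1%, and each of their calls was kept under every other alternative in which the gene was tested. Another 5 of the 20 were higher in 1 to 3 of the mutants, namely Dmc1, Mlh3, Prdm9, Syce2 and Ythdc2. Among these, Dmc1 and Mlh3 in Pcgf-4KO and Syce2 in Pcgf-4KO and Ring1a/b-dKO turned sign under another scaling. Trip13 and Mei4 were higher in none of the 4.

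**Figure D2:**
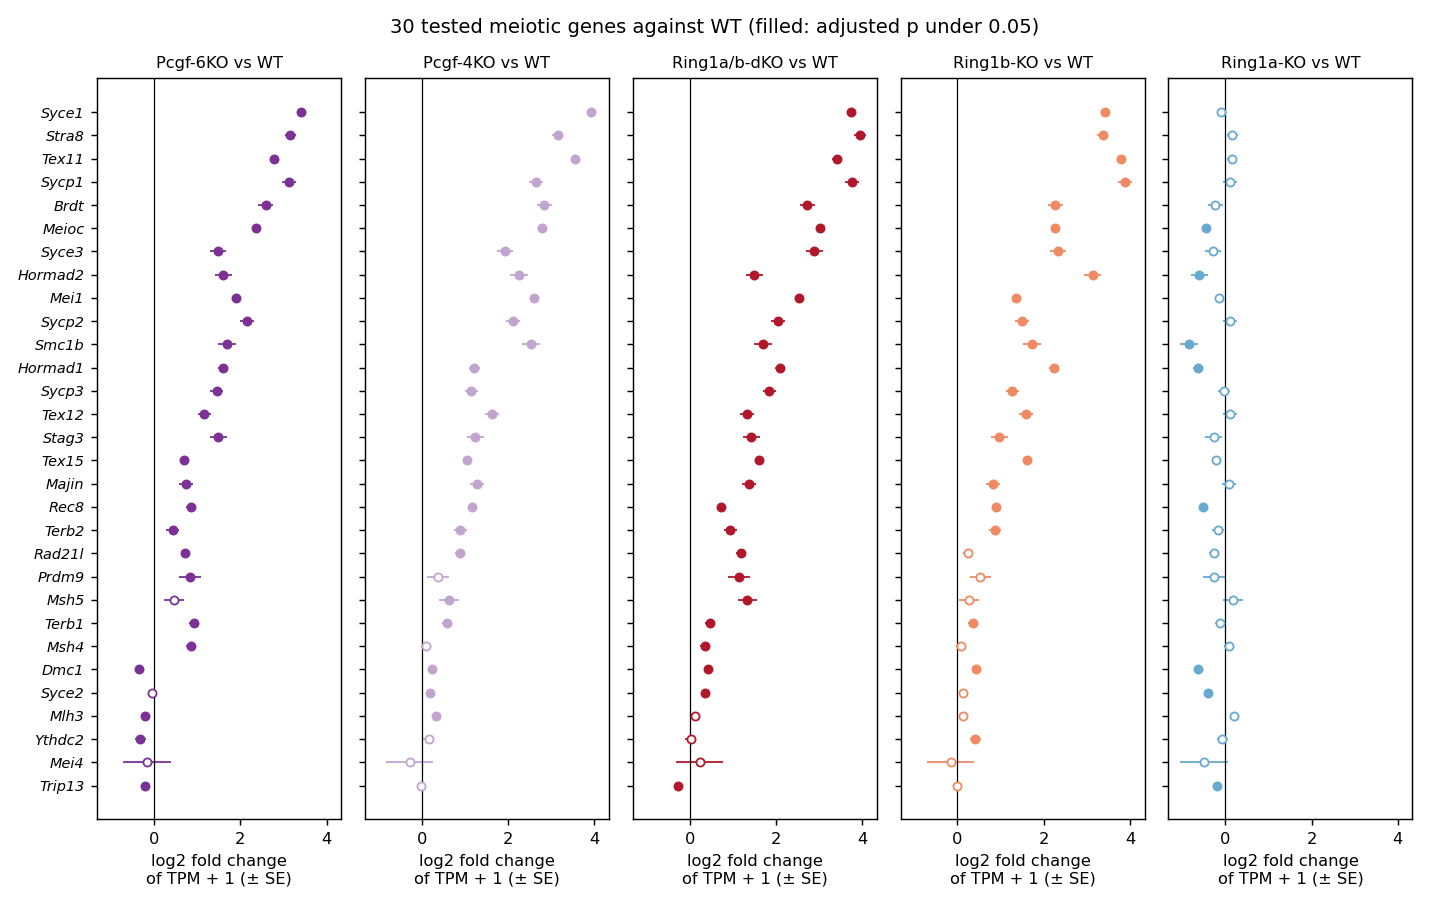
Log2 fold change of TPM + 1 against WT (points) with its SE (bars) for the 30 tested genes, in 1 panel per genotype, with filled points for an adjusted p under 0.05 and genes ordered by their mean change in the first 4 panels. Syce1, Stra8, Tex11 and Sycp1 lie between 2.65 and 3.95 in the first 4 panels and between -0.10 and 0.16 in the Ring1a-KO panel.

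Markers of other cells were measured beside these genes. All 6 embryonic stem cell markers were at 1 TPM or more in every group, and their sum was 1660 to 2098 TPM in Pcgf-6KO, 3234 to 3363 TPM in Pcgf-4KO, 2436 to 2744 TPM in Ring1a/b-dKO, 6277 to 6913 TPM in Ring1b-KO, 3300.3 to 3537 TPM in Ring1a-KO and 3426 to 3494 TPM in WT. The 5 spermatid markers summed to at most 1.20 TPM in every library, with 2 or 3 of them listed at 0 throughout each group. The 7 primordial germ cell markers summed to 226 to 244 TPM in Pcgf-6KO, 269 to 290 TPM in Pcgf-4KO, 275 to 276 TPM in Ring1a/b-dKO, 252 to 264 TPM in Ring1b-KO, 72.3 to 80.3 TPM in Ring1a-KO and 114 to 118 TPM in WT. Of these 7, Ddx4, Dazl and Tfap2c were higher in all 4 mutants, while Prdm1 was lower in all 4 and Nanos3 was called in none. Calls of Prdm14 and Dppa3 are not given here. Of all genes at 1 TPM or more in WT, 18.8% were higher in all 4. Supporting cell markers of the gonad (4 genes) summed to 1.14 to 6.69 TPM in the 4 mutants and to 0.46 to 1.13 TPM in Ring1a-KO and WT, with Foxl2 called higher in the 4 mutants and Fshr at 0.03 TPM or less in every library. Calls of the gonad markers Amh and Inha are not given either. Fibroblast markers (6 genes) summed to 8 to 23.4 TPM over all libraries. The part of these marker changes in the meiotic gene levels was not tested.

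The promoters of 4 of the genes are shown here, since the DNA-binding proteins of PRC1.6 are known to act through promoter sequence. A RefSeq window of 300 bases (GRCm38.p6, 250 bases before the gene start and 50 from it) was present for 26 of the 33 genes, and the first window listed was used for each. For Mei1, Meioc, Msh4, Prdm9, Stag3 and Stra8 that window lies wholly inside the gene as GENCODE draws it, since its start is 269 to 12480 bases downstream of the outermost GENCODE start. Capitals mark CACGTG, the E-box, which reads the same on both strands, and the E2F-type letters GGCGGGA and GCGGGAA with their complements TCCCGCC and TTCCCGC, which can overlap each other. The first 3 windows belong to genes that rose in all 4 mutants and hold such letters, and the fourth to a gene that also rose in all 4 and holds none. The windows are Sycp1 at chr3:102936051-102936350, minus strand, Sycp3 at chr10:88459337-88459636, plus strand, Hormad1 at chr3:95559427-95559726, plus strand, and Syce1 at chr7:140787805-140788104, minus strand.
Sycp1: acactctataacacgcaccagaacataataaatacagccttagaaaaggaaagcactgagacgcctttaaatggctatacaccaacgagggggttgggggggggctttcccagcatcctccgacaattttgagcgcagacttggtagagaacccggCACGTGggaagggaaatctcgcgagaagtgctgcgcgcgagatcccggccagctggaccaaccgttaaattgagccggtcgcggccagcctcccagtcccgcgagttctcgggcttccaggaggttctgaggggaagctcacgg
Sycp3: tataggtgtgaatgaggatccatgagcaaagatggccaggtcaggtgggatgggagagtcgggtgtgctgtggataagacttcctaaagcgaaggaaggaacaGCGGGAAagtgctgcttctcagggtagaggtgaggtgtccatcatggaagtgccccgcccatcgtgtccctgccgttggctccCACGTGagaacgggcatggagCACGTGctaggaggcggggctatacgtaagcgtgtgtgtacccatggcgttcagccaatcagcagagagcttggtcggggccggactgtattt
Hormad1: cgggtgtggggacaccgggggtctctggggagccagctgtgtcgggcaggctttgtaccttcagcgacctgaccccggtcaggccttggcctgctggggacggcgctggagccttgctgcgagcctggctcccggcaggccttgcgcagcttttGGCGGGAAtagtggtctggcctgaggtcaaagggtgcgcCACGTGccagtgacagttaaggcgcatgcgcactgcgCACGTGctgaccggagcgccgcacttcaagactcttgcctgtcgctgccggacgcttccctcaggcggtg
Syce1: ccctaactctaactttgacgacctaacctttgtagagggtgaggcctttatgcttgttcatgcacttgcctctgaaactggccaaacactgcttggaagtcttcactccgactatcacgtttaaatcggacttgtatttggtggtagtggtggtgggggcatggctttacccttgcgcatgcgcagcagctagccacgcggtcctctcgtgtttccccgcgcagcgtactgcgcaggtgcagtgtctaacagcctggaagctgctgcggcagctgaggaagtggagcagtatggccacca
The E-box of Sycp1 begins 94 bases before the gene start. Sycp3 has E-boxes 64 and 43 bases before its start and E2F-type letters 147 bases before it, and Hormad1 has E-boxes 57 and 20 bases before its start and overlapping E2F-type letters from 96 bases before it.

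An E-box was found in 6 of the 26 windows (23.1%), those of Brdt, Hormad1, Stag3, Sycp1, Sycp3 and Tex12, compared with 7.24% of the 27025 genes with a window and 10.2% of the 11647 tested genes with one. E2F-type letters were found in 10 of the 26 (38.5%), compared with 13.3% of all genes with a window and 24.2% of the tested ones. Both occurred in 4 of the 26 (15.4%), in Hormad1, Stag3, Sycp3 and Tex12, compared with 1.43% and 2.71%. Of 5 genes with more than 1 listed window, Syce2 has an E-box in its second window alone, 88 bases before that start, with E2F-type letters 35 bases before it. Counting any listed window, 7 of the 26 genes (26.9%) had an E-box, compared with 8.09% of all genes with a window. The added gene is Syce2, and the bases just after the start of its second window were found in no GENCODE transcript of the gene. The share of tested genes was not counted over all listed windows. The median number of CpG dinucleotides per window was 18 in the 26 meiotic genes, 7 in all genes with a window and 20 in the tested genes. These are counts of letters in a window, and binding was not measured in these data.

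**Figure D3:**
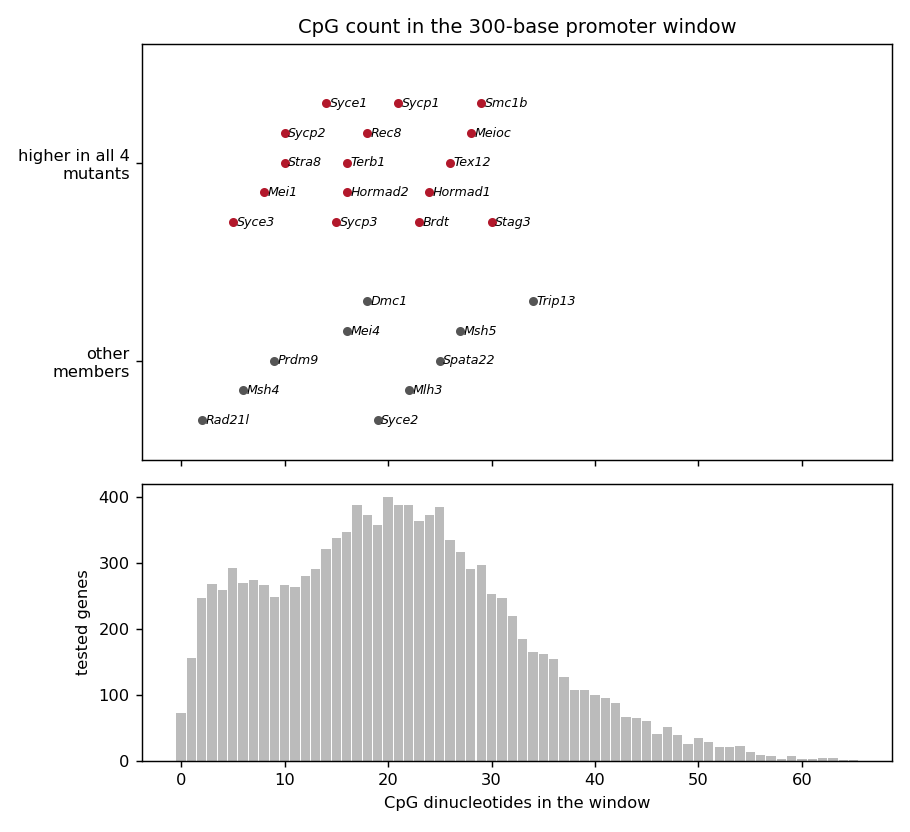
Number of CpG dinucleotides in the 300-base promoter window of the 26 genes with a window (top, points placed by row only to separate their names) and of the 11647 tested genes with one (bottom, number of genes). The genes higher in all 4 mutants range from 5 (Syce3) to 30 (Stag3) and the other genes from 2 (Rad21l) to 34 (Trip13), inside the range of the tested genes.

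Of the 5 synaptonemal complex and axis genes at 1 TPM or more in WT, 4 rose in Pcgf-6KO (background 46.7%), 5 in Pcgf-4KO (45.3%), 5 in Ring1a/b-dKO (46.9%) and 4 in Ring1b-KO (31.1%), with the sign of Syce2 depending on the scaling. Sycp1 (ENSMUSG00000027855, GRCm38 chr3:102818499-102936100, minus strand) encodes the transverse filament, the tooth of the zipper. It had 33.02, 29.9 and 35.2 TPM in Pcgf-6KO, 21.6, 23.1 and 25.2 TPM in Pcgf-4KO, 51.5, 51.1 and 51.6 TPM in Ring1a/b-dKO and 53.3, 61.2 and 52.9 TPM in Ring1b-KO. Its level was 2.35, 2.65 and 4.83 TPM in Ring1a-KO and 2.58, 2.53 and 3.54 TPM in WT, so that all 12 libraries of the 4 mutants lay above all 6 others. Against WT, Sycp1 rose by 3.13 ± 0.16 in Pcgf-6KO, 2.65 ± 0.16 in Pcgf-4KO, 3.76 ± 0.16 in Ring1a/b-dKO and 3.88 ± 0.16 in Ring1b-KO on the log2 scale (± SE, adjusted p at most 1.11e-09).

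Syce1 (ENSMUSG00000025480, GRCm38 chr7:140777229-140787852, minus strand), a central element protein that joins the transverse filaments, had 58.8, 62.1 and 59.01 TPM in Pcgf-6KO, 85.1, 87.0 and 87.1 TPM in Pcgf-4KO, 69.7, 81.3 and 78.9 TPM in Ring1a/b-dKO and 63.3, 60.9 and 56.6 TPM in Ring1b-KO. It had 4.28, 4.77 and 4.12 TPM in Ring1a-KO and 5.13, 4.67 and 4.51 TPM in WT, again with no overlap with the 4 mutants. Against WT, Syce1 rose by 3.40 ± 0.07 in Pcgf-6KO, 3.92 ± 0.07 in Pcgf-4KO, 3.75 ± 0.07 in Ring1a/b-dKO and 3.41 ± 0.07 in Ring1b-KO (adjusted p at most 9.65e-15). Syce3, another central element protein, had means of 13.8 ± 2.63 TPM in Pcgf-6KO, 19.2 ± 3.25 TPM in Pcgf-4KO, 38.1 ± 2.02 TPM in Ring1a/b-dKO, 25.7 ± 3.71 TPM in Ring1b-KO, 3.40 ± 0.89 TPM in Ring1a-KO and 4.36 ± 1.25 TPM in WT. Against WT, Syce3 rose by 1.48 ± 0.19 in Pcgf-6KO, 1.93 ± 0.19 in Pcgf-4KO, 2.89 ± 0.19 in Ring1a/b-dKO and 2.33 ± 0.19 in Ring1b-KO (adjusted p at most 4.43e-06). Tex12, which pairs with Syce2 in the central element, was under 3.5 TPM in every library and averaged 1.86 ± 0.17 TPM in Pcgf-6KO, 2.97 ± 0.65 TPM in Pcgf-4KO, 2.25 ± 0.71 TPM in Ring1a/b-dKO and 2.79 ± 0.26 TPM in Ring1b-KO, against 0.28 ± 0.19 TPM in WT.

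Syce2, the partner of Tex12, was already abundant in WT and moved little. It had 85.2, 85.4 and 73.0 TPM in Pcgf-6KO, 92.3, 99.2 and 94.1 TPM in Pcgf-4KO, 106, 106 and 112 TPM in Ring1a/b-dKO and 93.5, 85.7 and 97.2 TPM in Ring1b-KO, against 88.7, 81.9 and 81.5 TPM in WT. Its log2 changes against WT were -0.05 ± 0.06 in Pcgf-6KO, 0.18 ± 0.06 in Pcgf-4KO, 0.36 ± 0.06 in Ring1a/b-dKO and 0.13 ± 0.06 in Ring1b-KO. The changes in Pcgf-4KO (adjusted p = 0.0222) and Ring1a/b-dKO (adjusted p = 0.000143) passed the threshold, but under median ratio scaling the sign turned in both, to -0.14 in Pcgf-4KO and -0.01 in Ring1a/b-dKO. In the Pcgf-4KO comparison the call was also lost under quantile normalization (0.01) and without Pcgf-4KO replicate 2, WT replicate 2 or WT replicate 3 (log2 change 0.15 to 0.22 over the 6 fits without 1 library). Syce2 overlaps Gcdh on the other strand, and the labels do not say whether strand was used in counting.

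Sycp3 (ENSMUSG00000020059, GRCm38 chr10:88459569-88473236, plus strand), the main protein of the axial element, had 31.4, 29.9 and 29.2 TPM in Pcgf-6KO, 22.4, 24.6 and 25.9 TPM in Pcgf-4KO, 39.6, 40.99 and 38.4 TPM in Ring1a/b-dKO and 27.9, 25.6 and 25.5 TPM in Ring1b-KO. It had 9.09, 7.62 and 14.9 TPM in Ring1a-KO and 10.2, 10.8 and 10.1 TPM in WT. Ring1a-KO replicate 3 stands above the rest of its group, yet all 12 libraries of the 4 mutants exceeded it. Against WT, Sycp3 rose by 1.46 ± 0.15 in Pcgf-6KO, 1.15 ± 0.15 in Pcgf-4KO, 1.84 ± 0.15 in Ring1a/b-dKO and 1.27 ± 0.15 in Ring1b-KO (adjusted p at most 6.2e-06). Chpt1, a phospholipid enzyme gene that overlaps Sycp3 on the other strand, averaged 12.2 TPM in Pcgf-6KO, 15.4 TPM in Pcgf-4KO, 12.1 TPM in Ring1a/b-dKO, 15.8 TPM in Ring1b-KO, 7.25 TPM in Ring1a-KO and 5.35 TPM in WT. Reads from bases that both genes share cannot be told apart without strand, and how far their exons overlap was not measured. Sycp2, which binds Sycp3, stayed under 6.2 TPM and averaged 4.86 ± 1.15 TPM in Pcgf-6KO, 4.64 ± 0.66 TPM in Pcgf-4KO, 4.40 ± 0.80 TPM in Ring1a/b-dKO and 2.71 ± 0.42 TPM in Ring1b-KO, against 0.31 ± 0.19 TPM in WT, with rises of 1.5 to 2.15 on the log2 scale.

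The meiotic cohesin subunits Stag3, Smc1b and Rec8, all 3 at 1 TPM or more in WT, rose in each of the 4 mutants (background 18.8%). Smc1b, the meiotic counterpart of Smc1a, had 6.48, 10.3 and 8.78 TPM in Pcgf-6KO, 13.9, 12.8 and 22.1 TPM in Pcgf-4KO, 8.55, 7.95 and 9.0 TPM in Ring1a/b-dKO and 9.55, 6.24 and 10.8 TPM in Ring1b-KO. Its libraries had 0.56, 0.55 and 0.73 TPM in Ring1a-KO and 2.41, 1.74 and 1.62 TPM in WT, with all 3 Ring1a-KO libraries below all 3 WT libraries. Against WT, Smc1b rose by 1.69 ± 0.21 in Pcgf-6KO, 2.53 ± 0.21 in Pcgf-4KO, 1.71 ± 0.21 in Ring1a/b-dKO and 1.73 ± 0.21 in Ring1b-KO (adjusted p at most 4.84e-06). Rec8, the kleisin that replaces Rad21, averaged 17.2 ± 0.71 TPM in Pcgf-6KO, 21.6 ± 2.33 TPM in Pcgf-4KO, 15.8 ± 0.85 TPM in Ring1a/b-dKO, 17.8 ± 0.54 TPM in Ring1b-KO, 6.13 ± 1.21 TPM in Ring1a-KO and 9.07 ± 0.12 TPM in WT. Against WT, Rec8 rose by 0.85 ± 0.10 in Pcgf-6KO, 1.16 ± 0.10 in Pcgf-4KO, 0.73 ± 0.10 in Ring1a/b-dKO and 0.90 ± 0.10 in Ring1b-KO (adjusted p at most 1.47e-05). Stag3, the cohesin subunit that replaces Stag1 and Stag2, averaged 25.2 ± 0.73 TPM in Pcgf-6KO, 21.5 ± 4.80 TPM in Pcgf-4KO, 24.6 ± 5.59 TPM in Ring1a/b-dKO, 17.4 ± 1.26 TPM in Ring1b-KO, 6.86 ± 1.69 TPM in Ring1a-KO and 8.51 ± 2.14 TPM in WT. Against WT, Stag3 rose by 1.49 ± 0.20 in Pcgf-6KO, 1.24 ± 0.20 in Pcgf-4KO, 1.43 ± 0.20 in Ring1a/b-dKO and 0.97 ± 0.20 in Ring1b-KO (adjusted p at most 0.000684).

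Rad21l, a second meiotic kleisin, reached at most 2.58 TPM. It averaged 1.44 ± 0.22 TPM in Pcgf-6KO, 1.72 ± 0.37 TPM in Pcgf-4KO, 2.33 ± 0.27 TPM in Ring1a/b-dKO, 0.74 ± 0.05 TPM in Ring1b-KO, 0.22 ± 0.07 TPM in Ring1a-KO and 0.47 ± 0.12 TPM in WT, and it was called higher in Pcgf-6KO, Pcgf-4KO and Ring1a/b-dKO, while its log2 change in Ring1b-KO was 0.24 ± 0.11 (adjusted p = 0.0864). The Pcgf-6KO call was lost under quantile normalization (0.12, adjusted p = 0.359).

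Hormad1 (ENSMUSG00000028109, GRCm38 chr3:95559677-95587671, plus strand) marks unsynapsed axes and promotes break formation. It had 16.98, 17.2 and 18.3 TPM in Pcgf-6KO, 11.5, 14.6 and 13.3 TPM in Pcgf-4KO, 25.6, 25.4 and 23.8 TPM in Ring1a/b-dKO and 28.8, 26.8 and 27.7 TPM in Ring1b-KO, with 2.87, 2.35 and 3.71 TPM in Ring1a-KO and 4.38, 5.01 and 5.94 TPM in WT. The 4 mutants did not overlap with the other 2 groups, and all Ring1a-KO libraries lay below all WT libraries. Against WT, Hormad1 rose by 1.6 ± 0.12 in Pcgf-6KO, 1.22 ± 0.12 in Pcgf-4KO, 2.09 ± 0.12 in Ring1a/b-dKO and 2.24 ± 0.12 in Ring1b-KO (adjusted p at most 2.06e-07). Hormad2, its relative, had 8.50, 11.7 and 13.7 TPM in Pcgf-6KO, 17.9, 17.98 and 17.5 TPM in Pcgf-4KO, 10.4, 11.04 and 9.33 TPM in Ring1a/b-dKO and 34.3, 33.6 and 33.5 TPM in Ring1b-KO. It had 0.90, 2.54 and 1.64 TPM in Ring1a-KO and 2.49, 4.18 and 2.45 TPM in WT, and the Ring1b-KO libraries stood highest by a wide margin. Against WT, Hormad2 rose by 1.61 ± 0.20 in Pcgf-6KO, 2.25 ± 0.20 in Pcgf-4KO, 1.5 ± 0.20 in Ring1a/b-dKO and 3.13 ± 0.20 in Ring1b-KO (adjusted p at most 9.12e-06).

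Trip13, an ATPase that removes HORMA proteins from the axis and also serves the mitotic spindle checkpoint, was at 35.5 ± 0.94 TPM in Pcgf-6KO, 40.2 ± 1.24 TPM in Pcgf-4KO, 33.5 ± 1.35 TPM in Ring1a/b-dKO, 40.4 ± 0.95 TPM in Ring1b-KO, 36.03 ± 3.82 TPM in Ring1a-KO and 40.97 ± 0.68 TPM in WT. It was lower in Pcgf-6KO (-0.20 ± 0.06, adjusted p = 0.00629) and in Ring1a/b-dKO (-0.28 ± 0.06, adjusted p = 0.0006). Its log2 change was -0.03 ± 0.06 in Pcgf-4KO (adjusted p = 0.696) and -0.02 ± 0.06 in Ring1b-KO (adjusted p = 0.818).

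**Figure D4:**
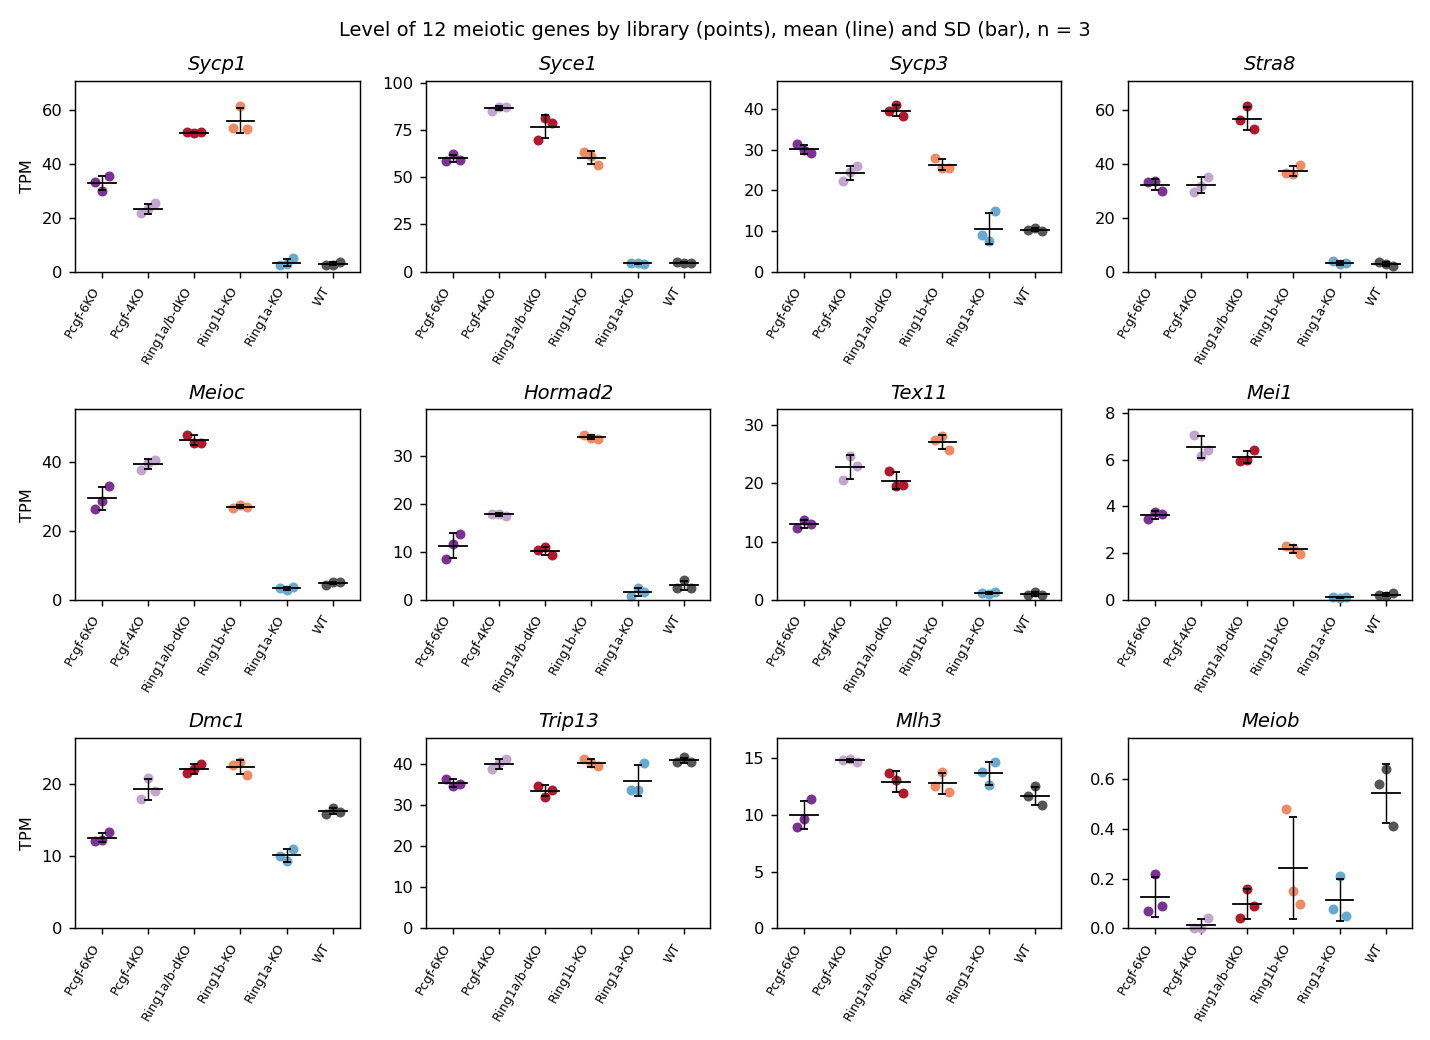
TPM of 12 of the genes by library (points) with the mean (long line) and SD (bar, n = 3), on axes that start at 0 and differ between panels. Sycp1, Syce1, Stra8, Meioc, Tex11 and Mei1 show no overlap between the first 4 groups and Ring1a-KO or WT, Hormad2 is highest in Ring1b-KO, and Meiob stays under 0.65 TPM.

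Of the 4 genes of strand exchange and crossover at 1 TPM or more in WT, 2 rose in Pcgf-6KO, near the background of 46.7%. The other 2, Dmc1 and Mlh3, fell, a share above the background of 27.8%, but the call of Mlh3 was lost in 4 of 6 fits without 1 library. In Pcgf-4KO 4 rose (background 45.3%), in Ring1a/b-dKO 3 (46.9%) and in Ring1b-KO 3 (31.1%), and the sign of Dmc1 and Mlh3 in Pcgf-4KO depends on the scaling. Tex11, an X-linked crossover factor, had 12.3, 13.7 and 12.95 TPM in Pcgf-6KO, 20.6, 24.7 and 22.9 TPM in Pcgf-4KO, 22.04, 19.6 and 19.6 TPM in Ring1a/b-dKO and 27.4, 28.04 and 25.7 TPM in Ring1b-KO. It had 1.25, 1.07 and 1.41 TPM in Ring1a-KO and 0.93, 1.36 and 0.79 TPM in WT, below every library of the 4 mutants. Against WT, Tex11 rose by 2.79 ± 0.10 in Pcgf-6KO, 3.56 ± 0.10 in Pcgf-4KO, 3.41 ± 0.10 in Ring1a/b-dKO and 3.80 ± 0.10 in Ring1b-KO (adjusted p at most 1.42e-12). Tex15, which is needed for loading recombinases and is also known for transposon silencing in the male germline, averaged 10.5 ± 1.48 TPM in Pcgf-6KO, 13.6 ± 0.14 TPM in Pcgf-4KO, 20.5 ± 1.67 TPM in Ring1a/b-dKO, 20.5 ± 1.06 TPM in Ring1b-KO, 5.10 ± 0.21 TPM in Ring1a-KO and 6.09 ± 0.41 TPM in WT. Against WT, Tex15 rose by 0.69 ± 0.08 in Pcgf-6KO, 1.04 ± 0.08 in Pcgf-4KO, 1.6 ± 0.08 in Ring1a/b-dKO and 1.6 ± 0.08 in Ring1b-KO (adjusted p at most 2.19e-06).

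Dmc1, the meiotic recombinase, had 12.2, 12.3 and 13.4 TPM in Pcgf-6KO, 18.02, 20.9 and 19.1 TPM in Pcgf-4KO, 21.6, 22.1 and 22.9 TPM in Ring1a/b-dKO and 22.7, 23.2 and 21.4 TPM in Ring1b-KO. It had 10.1, 9.31 and 11.1 TPM in Ring1a-KO and 15.9, 16.7 and 16.2 TPM in WT, which places Pcgf-6KO below WT and the other 3 mutants above it. Dmc1 fell in Pcgf-6KO (-0.34 ± 0.07, adjusted p = 0.000262) and was called higher in Pcgf-4KO (0.24 ± 0.07), Ring1a/b-dKO (0.43 ± 0.07) and Ring1b-KO (0.44 ± 0.07). Under median ratio scaling the Pcgf-4KO change turned to -0.07 (also -0.07 under quantile normalization) and the Ring1a/b-dKO change was 0.08, neither of them called, while the Ring1b-KO call was kept. Mlh3, which acts in crossover resolution, averaged 10.01 ± 1.23 TPM in Pcgf-6KO, 14.8 ± 0.14 TPM in Pcgf-4KO, 12.9 ± 0.92 TPM in Ring1a/b-dKO, 12.8 ± 0.92 TPM in Ring1b-KO, 13.7 ± 1.02 TPM in Ring1a-KO and 11.7 ± 0.81 TPM in WT. Its calls, lower in Pcgf-6KO (-0.21 ± 0.08) and higher in Pcgf-4KO (0.32 ± 0.08), were both lost under an alternative: the first in 4 of the 6 fits without 1 library (those without Pcgf-6KO replicate 1 or 2 or WT replicate 1 or 2, log2 change -0.30 to -0.14 over all 6), with no filter (adjusted p = 0.0526) and with only these 2 groups in the fit (adjusted p = 0.125), and the second under median ratio scaling (0.02) and quantile normalization (-0.01).

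Msh4 and Msh5 form the pair that stabilises crossover intermediates. Msh4 averaged 1.24 ± 0.29 TPM in Pcgf-6KO, 0.31 ± 0.05 TPM in Pcgf-4KO, 0.57 ± 0.13 TPM in Ring1a/b-dKO, 0.30 ± 0.05 TPM in Ring1b-KO, 0.30 ± 0.10 TPM in Ring1a-KO and 0.23 ± 0.11 TPM in WT, and its Pcgf-6KO rise of 0.86 ± 0.11 (adjusted p = 4.56e-06) was kept under every alternative in which it was tested. Its small Ring1a/b-dKO call (0.35 ± 0.11) was lost without Ring1a/b-dKO replicate 1 or WT replicate 1 (0.28 each) and reversed under quantile normalization (-0.07). Msh5 averaged 1.35 ± 0.41 TPM in Pcgf-6KO, 1.72 ± 0.97 TPM in Pcgf-4KO, 3.34 ± 1.08 TPM in Ring1a/b-dKO, 1.02 ± 0.31 TPM in Ring1b-KO, 0.89 ± 0.16 TPM in Ring1a-KO and 0.69 ± 0.28 TPM in WT, and its rise of 1.34 ± 0.23 in Ring1a/b-dKO (adjusted p = 0.000118) was kept under every alternative in which it was tested. In Pcgf-4KO, Msh5 was called at 0.64 ± 0.23, a call lost without Pcgf-4KO replicate 1 (0.37, adjusted p = 0.152), WT replicate 1 or WT replicate 3, and also with no filter, under both other scalings and with only these 2 groups in the fit (adjusted p 0.054 to 0.298). Meiob and Spata22, which bind single-stranded DNA as a pair, were low. Meiob was under 0.65 TPM in every library and highest in WT (0.58, 0.64 and 0.41 TPM). Spata22 did not exceed 1.58 TPM and was listed at 0 in 2 Ring1a-KO and 2 WT libraries. Its highest group mean was 1.03 TPM in Pcgf-4KO, against 0.18 TPM in WT, and it was not tested. Spata22 overlaps the protein-coding gene Gm49340 on the same strand, which averaged 1.89 TPM in Pcgf-4KO and 2.14 TPM in WT.

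Among the genes of the double-strand break machinery, Spo11, the enzyme that cuts, stayed at or under 0.25 TPM in all 18 libraries. Mei1, which is required for break formation, had 3.44, 3.75 and 3.69 TPM in Pcgf-6KO, 7.05, 6.17 and 6.39 TPM in Pcgf-4KO, 5.95, 6.00 and 6.41 TPM in Ring1a/b-dKO and 2.31, 2.23 and 1.97 TPM in Ring1b-KO. It had 0.14, 0.09 and 0.11 TPM in Ring1a-KO and 0.22, 0.18 and 0.30 TPM in WT, so that the 4 mutants did not overlap with the other 2 groups, and Ring1b-KO lay below the other 3 mutants. Against WT, Mei1 rose by 1.91 ± 0.08 in Pcgf-6KO, 2.61 ± 0.08 in Pcgf-4KO, 2.53 ± 0.08 in Ring1a/b-dKO and 1.36 ± 0.08 in Ring1b-KO (adjusted p at most 1.41e-09). Prdm9, the histone methyltransferase that places the breaks, averaged 2.81 ± 1.16 TPM in Pcgf-6KO, 1.74 ± 0.50 TPM in Pcgf-4KO, 3.61 ± 0.34 TPM in Ring1a/b-dKO, 2.12 ± 1.08 TPM in Ring1b-KO, 0.75 ± 0.32 TPM in Ring1a-KO and 1.10 ± 0.42 TPM in WT. It was called higher in Pcgf-6KO (0.83 ± 0.25) and Ring1a/b-dKO (1.15 ± 0.25), both lost under quantile normalization (0.23, adjusted p = 0.422 in Pcgf-6KO, and 0.56, adjusted p = 0.0675 in Ring1a/b-dKO). Mei4, another break factor, had 0.64, 3.01 and 7.55 TPM in Pcgf-6KO and 4.16, 4.97 and 1.53 TPM in WT. Its groups overlapped, and it was not called in any comparison with WT.

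Majin, Terb1 and Terb2 tie telomeres to the nuclear envelope so that chromosomes can move and find their partners. All 3 were under 1 TPM on average in WT, at 0.19 ± 0.08, 0.27 ± 0.04 and 0.75 ± 0.36 TPM, and passed the filter through the mutants. Majin averaged 0.997 ± 0.07 TPM in Pcgf-6KO, 1.91 ± 0.19 TPM in Pcgf-4KO, 2.12 ± 0.41 TPM in Ring1a/b-dKO and 1.15 ± 0.56 TPM in Ring1b-KO. Terb1 averaged 1.44 ± 0.38 TPM in Pcgf-6KO, 0.89 ± 0.02 TPM in Pcgf-4KO, 0.76 ± 0.10 TPM in Ring1a/b-dKO and 0.63 ± 0.11 TPM in Ring1b-KO. Terb2 averaged 1.35 ± 0.30 TPM in Pcgf-6KO, 2.21 ± 0.30 TPM in Pcgf-4KO, 2.33 ± 0.19 TPM in Ring1a/b-dKO and 2.16 ± 0.17 TPM in Ring1b-KO. Their log2 changes ran from 0.36 (Terb1 in Ring1b-KO) to 1.38 (Majin in Ring1a/b-dKO). Quantile normalization ended the calls of Majin (0.15) and Terb2 (-0.18) in Pcgf-6KO and of Terb1 in Ring1a/b-dKO (0.03) and Ring1b-KO (-0.05). The Terb2 call in Pcgf-6KO was also lost under median ratio scaling (0.26), with only these 2 groups in the fit (0.44) and without Pcgf-6KO replicate 1 (0.36) or WT replicate 3 (0.26).

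Of the 3 regulators of meiotic entry at 1 TPM or more in WT, 2 rose in Pcgf-6KO (background 46.7%), 2 in Pcgf-4KO (45.3%), 2 in Ring1a/b-dKO (46.9%) and 3 in Ring1b-KO (31.1%). Stra8 (ENSMUSG00000029848, GRCm38 chr6:34920163-34939344, plus strand), the transcription factor that retinoic acid induces before meiosis, had 33.2, 33.7 and 30.01 TPM in Pcgf-6KO, 29.4, 31.8 and 35.2 TPM in Pcgf-4KO, 56.2, 61.4 and 52.8 TPM in Ring1a/b-dKO and 36.5, 36.3 and 39.5 TPM in Ring1b-KO. It had 3.99, 2.63 and 3.00 TPM in Ring1a-KO and 3.36, 2.91 and 2.02 TPM in WT, and the Ring1a/b-dKO libraries stood above all others. Against WT, Stra8 rose by 3.16 ± 0.13 in Pcgf-6KO, 3.15 ± 0.13 in Pcgf-4KO, 3.95 ± 0.13 in Ring1a/b-dKO and 3.37 ± 0.13 in Ring1b-KO (adjusted p at most 1.31e-11). Meioc, which with Ythdc2 removes mitotic transcripts at meiotic entry, had 26.5, 28.8 and 33.03 TPM in Pcgf-6KO, 37.7, 39.8 and 40.6 TPM in Pcgf-4KO, 47.9, 45.5 and 45.6 TPM in Ring1a/b-dKO and 26.7, 27.5 and 26.9 TPM in Ring1b-KO. It had 3.48, 2.81 and 3.75 TPM in Ring1a-KO and 4.47, 5.10 and 5.07 TPM in WT, with every Ring1a-KO library below every WT library. Against WT, Meioc rose by 2.37 ± 0.08 in Pcgf-6KO, 2.78 ± 0.08 in Pcgf-4KO, 3.01 ± 0.08 in Ring1a/b-dKO and 2.25 ± 0.08 in Ring1b-KO (adjusted p at most 9.62e-12).

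Ythdc2, the RNA helicase that works with Meioc, averaged 5.01 ± 1.45 TPM in Pcgf-6KO, 7.21 ± 0.38 TPM in Pcgf-4KO, 6.48 ± 0.61 TPM in Ring1a/b-dKO, 8.75 ± 0.11 TPM in Ring1b-KO, 6.00 ± 0.42 TPM in Ring1a-KO and 6.36 ± 0.56 TPM in WT. It was called higher in Ring1b-KO (0.41 ± 0.13), a call lost under median ratio scaling (0.26, adjusted p = 0.0507), quantile normalization (0.21, adjusted p = 0.107) and without WT replicate 1 (0.35, adjusted p = 0.0558). It was called lower in Pcgf-6KO (-0.32 ± 0.13), a call lost in 4 of 6 fits without 1 library (Pcgf-6KO replicate 1 or 2, WT replicate 2 or 3, log2 change -0.51 to -0.19 over the 6), with no filter (adjusted p = 0.0541) and with only these 2 groups in the fit (adjusted p = 0.16). Brdt, a testis bromodomain protein that reads acetylated histones, was under 1 TPM on average in WT (0.61 ± 0.37 TPM) and averaged 8.60 ± 1.68 TPM in Pcgf-6KO, 10.3 ± 0.39 TPM in Pcgf-4KO, 9.51 ± 0.67 TPM in Ring1a/b-dKO and 6.73 ± 1.77 TPM in Ring1b-KO. Its log2 changes were 2.59 ± 0.18 in Pcgf-6KO, 2.84 ± 0.18 in Pcgf-4KO, 2.73 ± 0.18 in Ring1a/b-dKO and 2.27 ± 0.18 in Ring1b-KO (adjusted p at most 4.94e-08).

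In Ring1a-KO 8 of the 30 genes were called lower and 0 higher (limma, 1 at an unadjusted p under 0.05), where 10.8% of all tested genes were called lower and 12.3% higher. The 8 are Dmc1, Syce2, Hormad1, Hormad2, Smc1b, Rec8, Meioc and Trip13, all among the 20 genes at 1 TPM or more in WT, where 13.3% of all such genes were lower and 13.7% higher, 0.837% by at least 2-fold. Dmc1 fell to 10.1 ± 0.89 TPM in Ring1a-KO, against 16.3 ± 0.41 TPM in WT (-0.63 ± 0.07, adjusted p = 6.53e-06). Syce2 fell to 62.9 ± 2.46 TPM in Ring1a-KO, against 84.1 ± 4.03 TPM in WT (-0.41 ± 0.06, adjusted p = 0.00024). Of the 8, these 2 were kept under every alternative run, and the other 6 were each lost under at least 1. With only Ring1a-KO and WT in the fit, 3 of the 30 were lower. In that fit 3178 of all 17842 tested genes were called, 1750 of them higher and the rest lower. Hormad2 was lost without Ring1a-KO replicate 1 (-0.38) or 3 (-0.61) or WT replicate 2 (-0.41), and Trip13 in 5 of 6 fits without 1 library, all but the one without Ring1a-KO replicate 3 (-0.27 to -0.14). Ring1a-KO replicates 2 and 3 held 2.88% and 1.32% of their TPM in small RNA genes, where the other 16 libraries held 0.21% to 0.666%. Without both of them 7 of the 30 were lower, and the Smc1b call was lost (-0.90, adjusted p = 0.0859).

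The comparison of Ring1a/b-dKO with Ring1b-KO sets cells labelled as lacking both proteins against cells labelled as lacking Ring1b alone. Rnf2 itself was at 22.8 ± 2.94 TPM in Ring1a/b-dKO and 49.4 ± 3.13 TPM in Ring1b-KO. Ring1 was not called lower in Ring1a/b-dKO than in WT. The loss of Ring1a therefore cannot be told apart from other differences between these lines, here or in the contrast of all 4 Ring1 genotypes. Between these groups 13 of the 30 genes were higher and 4 lower in Ring1a/b-dKO, beside 41.1% and 18.8% of all tested genes, so the share of meiotic genes higher was near the background. Of the 20 at 1 TPM or more in WT, 7 were higher (35%, beside 42.6% of all such genes). Another 4 of the 20 were lower, beside 2719 of the 14220. Mei1 had 5.95, 6.00 and 6.41 TPM in Ring1a/b-dKO, against 2.31, 2.23 and 1.97 TPM in Ring1b-KO (1.17 ± 0.08, adjusted p = 6.87e-09). Meioc had 47.9, 45.5 and 45.6 TPM in Ring1a/b-dKO, against 26.7, 27.5 and 26.9 TPM in Ring1b-KO (0.76 ± 0.08, adjusted p = 1.72e-06). Both sets of libraries were fully apart. Stra8 (0.59 ± 0.13), Sycp3 (0.57 ± 0.15), Rad21l (0.94 ± 0.11) and Msh5 (1.09 ± 0.23) were higher too, and these 6 calls were kept under every alternative in which the gene was tested. The other 7 higher calls, of Sycp2, Syce1, Syce2, Syce3, Prdm9, Majin and Brdt, were each lost under at least 1. When 1 library was left out, the call of Sycp2 was lost without Ring1a/b-dKO replicate 3 (adjusted p = 0.0528), that of Syce3 without Ring1a/b-dKO replicate 2 or Ring1b-KO replicate 2 (up to 0.087), and those of Prdm9 and Brdt in 5 of 6 fits (up to 0.16 and 0.158).

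Hormad2 went the other way. It had 10.4, 11.04 and 9.33 TPM in Ring1a/b-dKO, against 34.3, 33.6 and 33.5 TPM in Ring1b-KO (-1.63 ± 0.20, adjusted p = 5.23e-06). Tex11 (-0.39 ± 0.10) and Trip13 (-0.26 ± 0.06) were also lower in Ring1a/b-dKO under every alternative, and Ythdc2 was called lower at -0.39 ± 0.13, a call lost without Ring1a/b-dKO replicate 2 (-0.33). Sycp1 was at 51.4 ± 0.26 TPM in Ring1a/b-dKO, against 55.8 ± 4.67 TPM in Ring1b-KO (-0.11 ± 0.16, adjusted p = 0.566), and Tex15 at 20.5 ± 1.67 TPM in Ring1a/b-dKO, against 20.5 ± 1.06 TPM in Ring1b-KO (adjusted p = 1). Under median ratio scaling 8 of the 30 were higher and 9 lower. Of all 17842 tested genes 10644 were then called, 5481 of them higher (51.5% of calls, in place of 68.6%). Among the 20 at 1 TPM or more in WT, 3 were then higher, beside 30.5% of all such genes, and 9 lower, beside 4421 of the 14220.

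**Figure D5:**
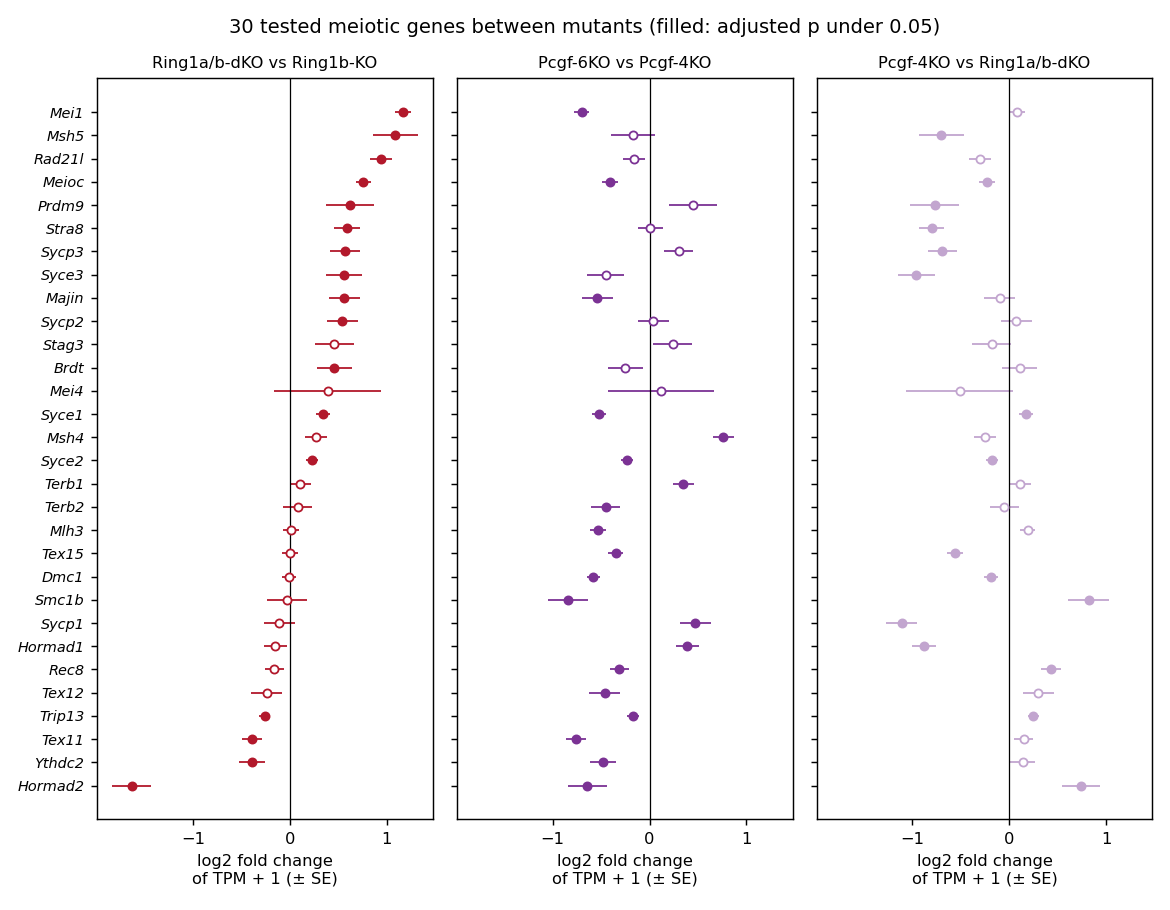
Log2 fold change of TPM + 1 (points) with its SE (bars) for the 30 tested genes in 3 comparisons between mutants, with filled points for an adjusted p under 0.05 and genes ordered by the first panel. Mei1, Msh5, Rad21l and Meioc are highest in Ring1a/b-dKO relative to Ring1b-KO and Hormad2 is lowest at -1.63, while most filled points of the middle panel, Pcgf-6KO against Pcgf-4KO, lie below 0.

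A contrast of all 4 Ring1 genotypes asked whether the change in Ring1a/b-dKO departs from the added changes of Ring1a-KO and Ring1b-KO on the log2 scale. It was above that sum for 13 of the 30 genes and below it for 2, beside 33.2% and 15.5% of all tested genes. Among the 20 at 1 TPM or more in WT, 9 were above it (45%, beside 34.8% of all such genes). Another 2 of the 20 were below it, beside 2149 of the 14220. Mei1 (1.32 ± 0.11), Meioc (1.20 ± 0.12), Rad21l (1.21 ± 0.16), Syce2 (0.64 ± 0.09) and Dmc1 (0.62 ± 0.09) were above it under every alternative in which they were tested (adjusted p at most 6.64e-05). Tex11 was below it (-0.54 ± 0.14, adjusted p = 0.00506) under every alternative. For Dmc1 the 4 means were 22.2 ± 0.68 TPM in Ring1a/b-dKO, 22.4 ± 0.93 TPM in Ring1b-KO, 10.1 ± 0.89 TPM in Ring1a-KO and 16.3 ± 0.41 TPM in WT, so that the low value stands in Ring1a-KO. Under median ratio scaling the counts were 5 above and 5 below. Of all 17842 tested genes 8698 were then called, 4613 of them above (53% of calls, in place of 68.1%). Among the 20, 3 were then above it, beside 26.3% of all such genes, and 5 below it, beside 3377 of the 14220.

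Between the Pcgf knockouts, 4 of the 30 genes were higher in Pcgf-6KO and 16 lower, beside 28.8% and 24% of all tested genes. Among the 20 at 1 TPM or more in WT, 2 were higher (10%, beside 26% of all such genes). Another 12 of the 20 were lower, beside 3926 of the 14220. Under quantile normalization 41.3% of all calls were higher, in place of 54.6%. The 10 lower calls kept under every alternative in which the gene was tested are Syce1, Syce2, Smc1b, Dmc1, Mlh3, Tex15, Tex11, Mei1, Majin and Meioc. Tex11 had 12.3, 13.7 and 12.95 TPM in Pcgf-6KO, against 20.6, 24.7 and 22.9 TPM in Pcgf-4KO (-0.76 ± 0.10, adjusted p = 1.39e-05). Mei1 had 3.44, 3.75 and 3.69 TPM in Pcgf-6KO, against 7.05, 6.17 and 6.39 TPM in Pcgf-4KO (-0.70 ± 0.08, adjusted p = 2.47e-06). Syce1 was at 59.9 ± 1.85 TPM in Pcgf-6KO, against 86.4 ± 1.12 TPM in Pcgf-4KO (-0.52 ± 0.07, adjusted p = 8.55e-06). None of these 3 overlapped between the groups. Msh4 was the gene whose higher call in Pcgf-6KO was kept throughout (0.76 ± 0.11), while those of Sycp1, Hormad1 and Terb1 were each lost without 1 or more libraries, among them Pcgf-4KO replicate 1 for Sycp1 (0.42) and Hormad1 (0.30), and Pcgf-6KO replicate 3 for Sycp1 (0.42) and Terb1 (0.23). Of the other 6 lower calls, that of Hormad2 was lost without Pcgf-6KO replicate 1 (-0.46), that of Terb2 without Pcgf-6KO replicate 2 or Pcgf-4KO replicate 3, those of Rec8 and Trip13 in 3 of 6 fits without 1 library, that of Tex12 in 4 of 6, and that of Ythdc2 with only these 2 groups in the fit. Stra8 was at 32.3 ± 1.99 TPM in Pcgf-6KO and 32.1 ± 2.90 TPM in Pcgf-4KO (0.01 ± 0.13, adjusted p = 0.963).

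Between Pcgf-4KO and Ring1a/b-dKO, 5 of the 30 genes were higher in Pcgf-4KO and 11 lower, beside 15.3% and 22.1% of all tested genes. Among the 20 at 1 TPM or more in WT, 5 were higher (25%, beside 16.3% of all such genes). Another 10 of the 20 were lower, beside 3164 of the 14220. Under quantile normalization 51.3% of all calls were higher, in place of 40.8%. Sycp1 had 21.6, 23.1 and 25.2 TPM in Pcgf-4KO, against 51.5, 51.1 and 51.6 TPM in Ring1a/b-dKO (-1.11 ± 0.16, adjusted p = 7.09e-05). Hormad1 (-0.88 ± 0.12), Syce3 (-0.96 ± 0.19), Stra8 (-0.80 ± 0.13), Sycp3 (-0.69 ± 0.15) and Tex15 (-0.56 ± 0.08) were lower in Pcgf-4KO as well. Smc1b (0.82 ± 0.21), Hormad2 (0.74 ± 0.20), Rec8 (0.43 ± 0.10) and Trip13 (0.25 ± 0.06) were higher in it. These 10 calls were kept under every alternative, and the other 6 were each lost under several. Without 1 library the call of Meioc was lost in 6 of 6 fits, those of Syce1, Syce2 and Dmc1 in 5 of 6, and those of Msh5 and Prdm9 in 4 of 6. In the 6 fits without 1 library of these groups the number of lower genes was 7 to 9.

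Other meiotic genes, from a list by function of which 25 were found in the table, were tested in the same fits. Of these, 16 were at 1 TPM or more in WT. Among the 16, 10 were higher and 3 lower in Pcgf-6KO (background 46.7% and 27.8%), 8 and 3 in Pcgf-4KO (45.3% and 22.1%), 9 and 3 in Ring1a/b-dKO (46.9% and 19.5%), 9 and 1 in Ring1b-KO (31.1% and 21.1%), and 1 and 6 in Ring1a-KO (13.7% and 13.3%). The shares higher were 62.5% in Pcgf-6KO, 50% in Pcgf-4KO, 56.2% in Ring1a/b-dKO and 56.2% in Ring1b-KO. Those in Pcgf-4KO and Ring1a/b-dKO were near the background. Under median ratio scaling 6 were higher and 3 lower in Pcgf-6KO, 7 and 6 in Pcgf-4KO, 8 and 6 in Ring1a/b-dKO, 9 and 2 in Ring1b-KO, and 1 and 8 in Ring1a-KO. The background higher was then 31.6% in Pcgf-6KO, 28.7% in Pcgf-4KO, 28.2% in Ring1a/b-dKO, 21.3% in Ring1b-KO and 14.4% in Ring1a-KO. In the same order, 6205, 5601, 5589, 4891 and 2447 of the 14220 background genes were lower. The Pcgf-6KO share higher, 37.5%, was then near the background. Under quantile normalization the counts were 5 and 8 in Pcgf-6KO, 7 and 6 in Pcgf-4KO, 8 and 7 in Ring1a/b-dKO, 9 and 2 in Ring1b-KO, and 0 and 7 in Ring1a-KO. The background higher was then 30.4% in Pcgf-6KO, 29.6% in Pcgf-4KO, 28.4% in Ring1a/b-dKO, 22.8% in Ring1b-KO and 12.7% in Ring1a-KO. In the same order, 6445, 5347, 5400, 4513 and 2129 of the 14220 background genes were lower. The Pcgf-6KO share higher, 31.2%, was again near the background. Of all 25, the 5 with the highest group mean are named, a choice that favours genes high in a mutant. Rec114, a break factor, averaged 73.3 ± 3.01 TPM in Pcgf-6KO, 70.7 ± 5.65 TPM in Pcgf-4KO, 56.8 ± 3.27 TPM in Ring1a/b-dKO, 77.9 ± 4.14 TPM in Ring1b-KO, 37.7 ± 3.93 TPM in Ring1a-KO and 33.3 ± 1.17 TPM in WT. Zcwpw1, a reader of the marks that Prdm9 makes, averaged 43.5 ± 2.16 TPM in Pcgf-6KO, 43.5 ± 0.98 TPM in Pcgf-4KO, 58.1 ± 2.89 TPM in Ring1a/b-dKO, 29.1 ± 2.03 TPM in Ring1b-KO, 10.03 ± 0.02 TPM in Ring1a-KO and 12.9 ± 0.59 TPM in WT. Both were called higher in all 4 mutants, under both other scalings as well.

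Fkbp6, a testis immunophilin of the piRNA pathway, had 60.5, 60.4 and 64.3 TPM in Pcgf-6KO, 38.2, 39.9 and 38.1 TPM in Pcgf-4KO, 2.17, 2.36 and 2.61 TPM in Ring1a/b-dKO and 49.1, 43.9 and 45.5 TPM in Ring1b-KO. It had 0.11, 0.20 and 0.31 TPM in Ring1a-KO and 0.30, 0.41 and 0.11 TPM in WT, so that Ring1a/b-dKO lay far below the other 3 mutants although above WT, and its log2 change in Ring1a/b-dKO against Ring1b-KO was -3.80 ± 0.09 (adjusted p = 6.59e-14). Six6os1, a central element gene, averaged 45.96 ± 2.25 TPM in Pcgf-6KO, 43.8 ± 8.33 TPM in Pcgf-4KO, 63.4 ± 3.63 TPM in Ring1a/b-dKO, 58.9 ± 1.77 TPM in Ring1b-KO, 28.6 ± 6.78 TPM in Ring1a-KO and 30.9 ± 2.16 TPM in WT, and its calls in Pcgf-6KO (0.56 ± 0.14) and Pcgf-4KO (0.48 ± 0.14) were lost under median ratio scaling (adjusted p = 0.173 in Pcgf-6KO and 0.286 in Pcgf-4KO). Psmc3ip, a Dmc1 cofactor that mitotic cells also use, was at 40.9 ± 4.02 TPM in Pcgf-6KO and 39.3 ± 2.20 TPM in Ring1a-KO, both called lower, against 48.5 ± 0.71 TPM in WT.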

How the data were processed

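The authors deposited 1 TPM value per gene and library for 18 libraries of embryonic stem cells, 3 per genotype, made from total RNA with a TruSeq kit, per the labels' protocols. Per the submitters' processing notes, TopHat2 2.1.1, RSEM, edgeR and the build GRCm38.p5 were used, while the annotation release and any use of strand in counting are not stated in the sources used here. TPM holds no read counts, so no counting interval can be given. An exact 0 may be a failed estimate: 86 genes with a median of at least 5 TPM have a 0 somewhere, so such values are written as listed at 0. The authors' 6 mean columns were left aside. GENCODE (GRCm38) gave symbols and positions, and RefSeq (GRCm38.p6) gave promoter windows for 26 of the 33 genes.

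From these values, log2(TPM + 1) was computed and the 17842 genes with 1 TPM or more in 3 or more libraries were kept. limma 3.58.1 (R 4.3.3) fitted 1 mean per genotype over the 18 libraries, with an intensity trend in the prior variance and 12 residual degrees of freedom, and was first tested on simulated data with known changes. Two-sided p-values were adjusted by Benjamini-Hochberg within each of 9 comparisons, with calls under 0.05. All 33 genes are named, with full statistics for those averaging at least 10 TPM in some group, and of other lists the 5 genes with the highest group mean. Genes, lists and tests were chosen with earlier results of these data known. Alternatives changed the pseudocount, filter, scaling, libraries in the fit and a block on replicate number. Fits without Ring1a-KO replicates 2 and 3 together, and on nuclear protein-coding genes only, were added after seeing the data. A list of general cohesin and repair genes is not reported here.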

Additional observations from a re-analysis of the deposited data

Results flagged for a closer look

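The change that goes with the label of Ring1a loss differed between cells labelled as lacking Ring1b and cells labelled with it, for 15 of the 30 tested genes. This was called by limma's test of that difference on the log2 scale at an adjusted p under 0.05. The difference was positive for Mei1 (1.32), Rad21l (1.21), Meioc (1.20), Msh5 (0.92), Syce3 (0.84), Smc1b (0.82), Stag3 (0.73), Brdt (0.70), Syce2 (0.64), Dmc1 (0.62), Sycp3 (0.60), Hormad1 (0.48) and Syce1 (0.44). It was negative for Hormad2 (-1.03) and Tex11 (-0.54). Of all tested genes 33.2% had a positive and 15.5% a negative difference, so a call in either direction was about as common among them as among the 30. Under median ratio scaling the difference was positive for 5 of the 30 and negative for 5. Of all 17842 tested genes 8698 were then called, 4613 of them positive. When 1 of the 12 libraries was left out at a time, the call was lost in 8 of 12 fits for Stag3 (adjusted p up to 0.11), 6 of 12 for Msh5 (up to 0.0868), Smc1b (up to 0.0832) and Sycp3 (up to 0.0695), 5 of 12 for Brdt (up to 0.089), 4 of 12 for Hormad1 (up to 0.07) and 3 of 12 for Syce3 (up to 0.0531), and in 0 of 12 for the other 8. Of these 8, the call of Hormad2 was lost with a pseudocount of 0.1 (-0.84, adjusted p = 0.0896) and without Ring1a-KO replicates 2 and 3 together (-0.57, adjusted p = 0.124), and that of Syce1 under median ratio scaling (0.28, adjusted p = 0.0529). Mei1, Rad21l, Msh5 and Brdt averaged under 1 TPM in WT and passed the filter through mutant libraries.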

How the results depend on the processing

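Over all calls of the 30 genes and all alternatives, 2313 values kept direction and call, 232 kept direction but lost the call, and 8 turned sign. Quantile normalization turned Terb2 in Pcgf-6KO (-0.18), Mlh3 (-0.01) and Dmc1 (-0.07) in Pcgf-4KO, Msh4 in Ring1a/b-dKO (-0.07) and Terb1 in Ring1b-KO (-0.05), all against WT, and median ratio scaling turned Syce2 (-0.14) and Dmc1 (-0.07) in Pcgf-4KO and Syce2 in Ring1a/b-dKO (-0.01). Counts in this part are over all 30 tested genes, of which 10 passed the filter through mutant libraries. Those called higher against WT stayed within 1.5 times in the 4 mutants with rises. The count called lower in Pcgf-6KO was 2 with the compared groups only (4 in the report) and 2 to 4 without 1 library. In Pcgf-4KO and in Ring1b-KO it was 1 under no filter, median ratio scaling and quantile normalization (0 in the report), and in Ring1a/b-dKO it was 2 under no filter and 3 under each of these scalings (1 in the report). In Ring1a-KO 3 genes were lower with the compared groups only (8 in the report), and 2169 of all genes were called without replicates 2 and 3 together. In Ring1a/b-dKO against Ring1b-KO, median ratio scaling gave 8 higher and 9 lower and quantile normalization 10 lower. Of all tested genes 10644 were called under median ratio scaling, 5481 of them higher, and 10594 under quantile normalization, 5510 of them higher. Between Pcgf-6KO and Pcgf-4KO, 2 were higher under a 5 TPM filter and 2 to 4 without 1 library. Between Pcgf-4KO and Ring1a/b-dKO, 8 were higher under quantile normalization, 6 lower under no filter and 7 to 9 lower without 1 library. The interaction of Ring1a and Ring1b was positive for 8 genes under no filter, 5 under median ratio scaling, 6 under quantile normalization and 8 to 12 without 1 library. It was negative for 1 gene with a pseudocount of 0.1, for 5 under either scaling and for 1 without Ring1a-KO replicates 2 and 3. The cause of these differences was not tested.

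Replicate numbers did not pair the samples: same-numbered libraries of different groups had correlations of their deviations from -0.109 to 0.071 over 45 pairs. With a replicate block, 23 genes were higher and 3 lower in Pcgf-6KO, 25 and 0 in Pcgf-4KO, 26 and 1 in Ring1a/b-dKO, 22 and 0 in Ring1b-KO, and 0 and 8 in Ring1a-KO, against WT. These counts hold the 10 genes that passed the filter through mutant libraries. Of all 17842 tested genes, 9193 were then higher in Pcgf-6KO, 8338 in Pcgf-4KO, 8654 in Ring1a/b-dKO, 6126 in Ring1b-KO and 2133 in Ring1a-KO. Calls in either direction numbered 13204, 11509, 11445, 9110 and 3994 in the same order. The replicate block gave 12 and 4 in Ring1a/b-dKO against Ring1b-KO, 4 and 16 between Pcgf-6KO and Pcgf-4KO, 5 and 10 between Pcgf-4KO and Ring1a/b-dKO, and 12 and 2 for the interaction. In the same order, 10584, 9359, 6499 and 8564 of all tested genes were called, of which 7268, 5103, 2649 and 5820 were higher.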
